A study of Rattus norvegicus with 8 samples.

Results

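Adenosine and purine signaling was described through 10 genes, which encode the 4 adenosine receptors (Adora1, Adora2a, Adora2b and Adora3), 4 receptors of ATP and other nucleotides (P2rx4, P2rx7, P2ry1 and P2ry2) and the ectonucleotidases Entpd1 and Nt5e. The members were taken by gene symbol from the annotation of the array. They are 10 of 14224 named genes and are read by 12 of 31042 probe sets, groups of short oligonucleotides matched to a transcript. Adora1 and Adora2a have a pair of probe sets each. 1 further probe set is annotated to Adora3 together with another gene and was left out. The Adora3 probe set that was used carries 2 gene identifiers, both under the symbol Adora3.

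The tissues were the left atrial appendage and the left ventricular free wall of 13 untreated, normal male Sprague Dawley rats of 225 to 275 g, whose age is not given in the sources used here. Each tissue was divided into 4 pools, and the RNA of each pool was hybridized to 1 Affymetrix GeneChip rat array. A replicate is therefore a pool of several animals. The authors summarized the intensities by Robust Multiple-Array Averaging (RMA), and all values below are log2 signal intensities unless a fold is given.

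Cells release ATP when they are stretched, short of oxygen or stimulated by nerves. Outside the cell, ATP acts on P2X receptors, which are ion channels opened by ATP, and on P2Y receptors, which are coupled to G proteins. Entpd1 (CD39) converts ATP and ADP to AMP, and Nt5e (CD73) converts AMP to adenosine. Of the adenosine receptors, those of Adora1 and Adora3 act through inhibitory G proteins while those of Adora2a and Adora2b stimulate adenylyl cyclase. In the heart, A1 receptors are known for slowing the sinus node and atrioventricular conduction, and for opening the K+ channel of Kcnj3 and Kcnj5 in atrial muscle, while the Adora2a receptor is known for relaxing the coronary vessels.

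For each probe set the atria were compared with the ventricles by limma, and the call was made at an adjusted p under 0.05 on the whole array. A difference below 0 means lower in the atria. Where a gene has several probe sets, the brightest one stands for it in the counts. Of the 10 members, 1 was higher in the atria (Adora1), 4 were lower (Adora2a, Adora2b, P2ry2 and Entpd1) and 5 were not called. Over all 14224 genes 44.9% were called, 22.4% as higher and 22.5% as lower in the atria, so the share of members called, 5 of 10, lies near that of all genes. The pools of the tissues did not overlap for 4 of the 10 members, against 44.1% of all genes. The study set its thresholds on the FDR of SAM and a fold. With cutoffs of the same size put on the adjusted p of limma (under 0.0001) and the fold (at least 1.8), called the study thresholds here, Adora2a alone passed, against 5.89% of all genes. The median difference of the members was -0.2, beside -0.04 over all genes.

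**Figure D1:**
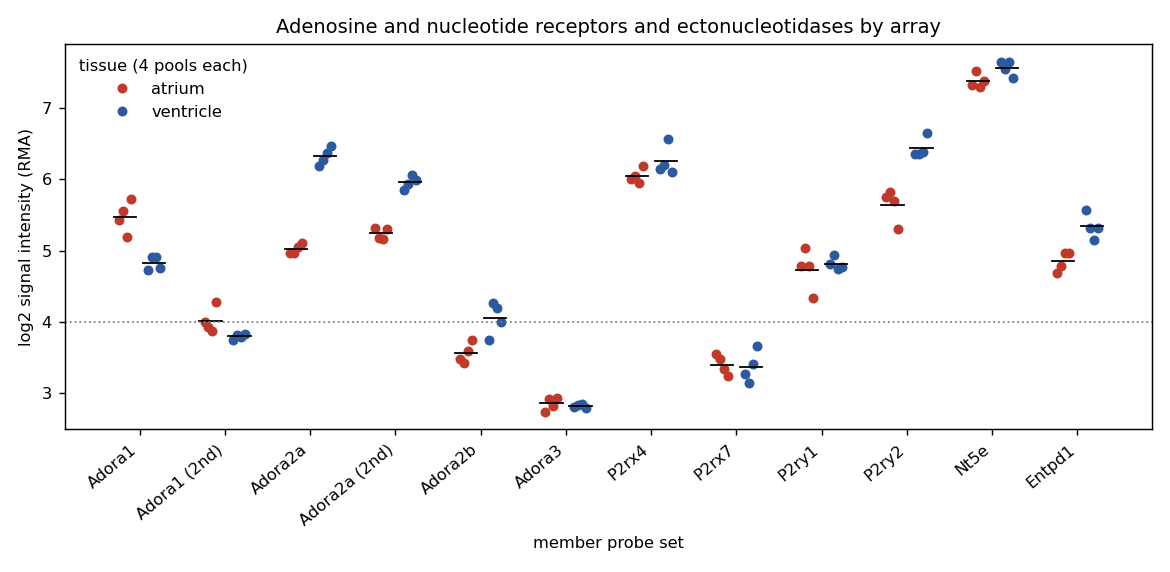
Log2 signal intensity (vertical axis) of the 12 member probe sets (horizontal axis) on each of the 8 arrays, with atrial pools in red, ventricular pools in blue and the mean of each tissue as a black line. "2nd" marks the dimmer probe set of a gene, and the dotted line at 4 marks the low end of the intensities. All 4 atrial pools lie above all 4 ventricular pools for Adora1 and below them for Adora2a, P2ry2 and Entpd1.

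Adora1 was more abundant in the atria, and Adora2a in the ventricles. Adora1, the receptor that couples to Gi/o proteins, read 5.43, 5.55, 5.19 and 5.72 in atrial replicates 1 to 4 and 4.73, 4.91, 4.91 and 4.76 in ventricular replicates 1 to 4. Every atrial pool lay above every ventricular pool. The means were 5.47 ± 0.22 (SD, n = 4 pools) and 4.83 ± 0.1 (SD, n = 4), and differed by 0.64 (SE 0.1) or 1.56 fold (adjusted p = 0.00069 from limma). The dimmer Adora1 probe set read 4, 3.93, 3.88 and 4.28 in the atria and 3.75, 3.82, 3.79 and 3.83 in the ventricles. Its difference of 0.23 also had no overlap between the tissues but was not called (adjusted p = 0.062), and the ventricular mean of 3.8 lies under 4, near the low end of the intensities. Without atrial replicate 4 the difference was 0.14. The probe set was called after quantile (adjusted p = 0.013) and cyclic loess normalization (0.0089), with the SAM statistic (FDR 0.018), and without atrial replicate 3 (0.044), and over all limma alternatives its adjusted p ran from 0.0089 to 0.24.

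Adora2a, which raises cyclic AMP, was the member with the largest difference. It read 4.97, 4.96, 5.05 and 5.1 in the atria and 6.19, 6.27, 6.37 and 6.46 in the ventricles. The gap between the highest atrial and the lowest ventricular pool exceeded the whole range of either tissue. The means were 5.02 ± 0.07 (SD, n = 4) and 6.32 ± 0.12 (SD, n = 4), and differed by -1.3 (SE 0.07), so that the ventricles were 2.47 fold higher (adjusted p = 3.3e-07 from limma). The other Adora2a probe set read 5.32, 5.17, 5.16 and 5.31 in the atria against 5.85, 5.93, 6.06 and 5.99 in the ventricles. Both probe sets were lower in the atria with no overlap, but they set different sizes, as this difference was -0.72 (95% interval -0.87 to -0.56) and that of the other probe set -1.3 (95% interval -1.46 to -1.14). Adora2a is among the genes that the study selected from these same arrays.

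Adora2b, the receptor of low affinity for adenosine, read 3.48, 3.42, 3.6 and 3.75 in the atria and 3.75, 4.27, 4.19 and 4 in the ventricles. The tissues touched, as atrial replicate 4 and ventricular replicate 1 both read 3.75. The difference was -0.49 (SE 0.11, adjusted p = 0.0065). The atrial mean of 3.56 lies under a log2 of 4, near the low end of the intensities. The ventricular mean of 4.05 lies barely above it, so the 1.4 fold is poorly set. Adora3 read 2.74 to 2.94 in the atria and 2.79 to 2.85 in the ventricles. Both tissues were at the low end, so no size can be set for this receptor (difference 0.04, adjusted p = 0.68).

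P2ry2, a receptor of ATP and UTP coupled to Gq proteins, was the only called member among the 4 nucleotide receptors. It read 5.75, 5.82, 5.7 and 5.3 in the atria and 6.36, 6.35, 6.38 and 6.65 in the ventricles. All atrial pools were below all ventricular pools, and replicate 4 was the lowest atrial pool and the highest ventricular pool. The difference was -0.79 (SE 0.12), or 1.73 fold higher in the ventricles (adjusted p = 0.00032). Without atrial replicate 4 the difference was -0.68 and without ventricular replicate 4 it was -0.72.

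P2rx4, an ATP-gated channel of muscle, endothelium and macrophages, read 6, 6.04, 5.95 and 6.19 in the atria and 6.15, 6.2, 6.56 and 6.1 in the ventricles. The tissues overlapped, ventricular replicate 3 was highest, and the difference of -0.21 was not called (95% interval -0.43 to 0.02, adjusted p = 0.13), although the SAM statistic gave an FDR of 0.039 and a replicate block with atrial replicates 3 and 4 exchanged an adjusted p of 0.039. Without ventricular replicate 3 the P2rx4 difference was -0.1 (adjusted p = 0.32). P2rx7, the ATP-gated channel of inflammasome activation, lies next to P2rx4 among the protein-coding genes of the RefSeq annotation. It read 3.24 to 3.55 in the atria and 3.15 to 3.66 in the ventricles, at the low end in both, with a difference of 0.03 (adjusted p = 0.85) that fell to -0.02 without atrial replicate 1 and -0.04 without ventricular replicate 2. P2ry1, the ADP receptor, read 4.78, 5.03, 4.78 and 4.33 in the atria and 4.81, 4.94, 4.74 and 4.77 in the ventricles. The tissues overlapped and the difference was -0.08 (95% interval -0.36 to 0.19, adjusted p = 0.62). Without atrial replicate 4 it turned to 0.05.

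The ectonucleotidases act in sequence on extracellular ATP. Entpd1, the enzyme that acts first, read 4.68, 4.78, 4.97 and 4.97 in the atria and 5.57, 5.32, 5.15 and 5.32 in the ventricles. The tissues did not overlap. The difference was -0.49 (SE 0.1), or 1.4 fold higher in the ventricles (adjusted p = 0.0029). Nt5e, which forms adenosine, read 7.32, 7.52, 7.29 and 7.38 in the atria and 7.64, 7.54, 7.65 and 7.42 in the ventricles. Atrial replicate 2 lay above ventricular replicate 4, and the difference of -0.19 was not called (95% interval -0.36 to -0.02, adjusted p = 0.073). It was called after quantile (adjusted p = 0.026) and cyclic loess normalization (0.031), with the SAM statistic (FDR 0.02), and without atrial replicate 2 (0.04) or ventricular replicate 4 (0.038), and over all limma alternatives its adjusted p ran from 0.026 to 0.22.

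**Figure D2:**
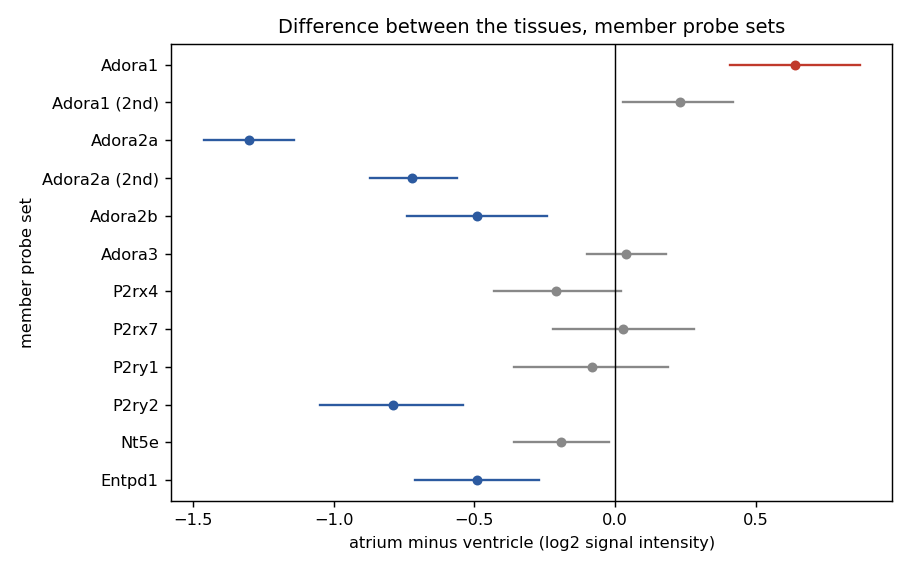
Difference between the tissues (atrium minus ventricle, log2 signal intensity, horizontal axis) for the 12 member probe sets, each point with its 95% interval from limma. Red marks a call as higher in the atria, blue a call as lower and grey no call. Adora1 lies at 0.64 on the right, and Adora2a at -1.3 is farthest to the left.

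The stretch before an annotated start, which need not be the first of the gene, is shown for 3 of the 4 members that were lower in the atria. Adora2a had no entry among the promoters. The sequences are the 250 bases before the start in RefSeq (GRCr8), on the strand of the gene, and capitals mark the GC box, GGGCGG on either strand, a motif bound by Sp1. The windows are chr10:47439462-47439711 (plus strand) for Adora2b, chr1:164779489-164779738 (minus strand) for P2ry2 and chr1:249422614-249422863 (plus strand) for Entpd1. For P2ry2 90 of the 250 bases, and for Entpd1 all 250, lie inside the annotated span of the gene.
Adora2b: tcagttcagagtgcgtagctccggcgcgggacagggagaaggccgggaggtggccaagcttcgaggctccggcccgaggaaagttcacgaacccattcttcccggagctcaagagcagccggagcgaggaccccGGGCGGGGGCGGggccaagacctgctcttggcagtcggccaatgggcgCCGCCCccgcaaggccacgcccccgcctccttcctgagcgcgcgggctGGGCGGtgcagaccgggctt
P2ry2: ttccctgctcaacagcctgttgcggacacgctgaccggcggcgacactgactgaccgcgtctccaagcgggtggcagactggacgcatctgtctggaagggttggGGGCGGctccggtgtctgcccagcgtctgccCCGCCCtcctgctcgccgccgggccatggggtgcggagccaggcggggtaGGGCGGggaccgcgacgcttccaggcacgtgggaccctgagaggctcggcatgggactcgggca
Entpd1: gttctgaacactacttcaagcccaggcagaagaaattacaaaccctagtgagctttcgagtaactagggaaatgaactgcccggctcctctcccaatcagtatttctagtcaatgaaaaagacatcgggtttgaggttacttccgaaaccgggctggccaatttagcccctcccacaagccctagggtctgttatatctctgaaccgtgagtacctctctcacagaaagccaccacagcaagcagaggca
Adora2b held 4 matches to the GC box, P2ry2 3 and Entpd1 0, and 30.5% of all 33469 windows of this length held at least 1. Members that were not called also held matches, 3 in Nt5e, 2 in P2ry1 and 2 in P2rx7, and Adora1, Adora3 and P2rx4 held 0, so matches were found in members with and without a call. For Adora1 and P2rx4 all 250 bases, and for P2rx7 62, lie inside the annotated span of the gene. Their counts therefore need not describe the stretch before the whole gene. The GC content was 71.2% in Adora2b, 71.2% in P2ry2 and 48.8% in Entpd1, beside a median of 51.2% over all windows. None of the 3 windows held the TATA box letters TATAAA on either strand, which 12.9% of all windows hold. The same was true of the ETS factor letters CCGGAAG, present in 7.27% of windows, and of the GATA factor letters AGATAA, present in 10.3%. The cyclic AMP response element, spelled TGACGTCA, was likewise not found in them and is present in 1.59% of windows. The windows thus had no motif of those searched in common.

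Genes with the pattern most like Adora1 and Adora2a were sought by the root mean square distance between the values of the 8 arrays, each probe set centred on its own mean. The brighter probe set of each was used. This distance depends mostly on the size of the difference between the tissues, so it does not show expression in the same cells. Nearest to Adora1 were the kinase Sik2 (distance 0.089, difference between the tissues 0.65), Gclm, a subunit of the enzyme that starts glutathione synthesis (0.093 and 0.49), and Vcf2 (0.098 and 0.58). Nearest to Adora2a were Rgs5, a G protein regulator and marker of pericytes (0.075 and -1.22), the pseudokinase Trib2 (0.086 and -1.37) and the K+ and Cl- cotransporter Slc12a7 (0.088 and -1.24).

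The arrays read whole tissue, in which fewer cells of a type and less RNA per cell cannot be told apart. The tissues carried their labels: 5 of 5 atrial muscle markers were higher and 5 of 5 ventricular muscle markers lower in the atria. On its brighter probe set, the ventricular light chain Myl2 read higher in atrial replicates 1 and 4 (10.48 and 11.3) than in 2 and 3 (4.32 and 6.82). Myl3 ran the same way (9.93, 8.06, 7.75 and 10.43 in atrial replicates 1 to 4). The dimmer Myl2 probe set (4.12, 3.94, 4.12 and 4.82) did not set replicate 1 apart, nor did Irx4, Irx3 or Myh7. Without atrial replicates 1 and 4 the members still counted 1 higher and 4 lower, with Adora1 at 0.54 and Adora2a at -1.32.

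Most markers of vessels were lower in the atria, as were Adora2a, Adora2b, P2ry2 and Entpd1. Of 11 measured endothelial markers 8 were lower in the atria, 1 was higher (Vwf, the von Willebrand factor, 0.93) and 2 were not called, with a median difference of -0.76. Their summed linear intensity was 3410 to 3591 in the atrial and 4694 to 5149 in the ventricular pools, and no defining marker was under a log2 of 4 in both tissues. Among them were Kdr, a receptor of VEGF (-1.34), and Emcn, the endothelial marker with the highest mean (-0.29). All 10 mural cell markers were lower, with a median of -0.81 and sums of 1391 to 1516 and 2771 to 2832, of which Cnn1 alone was under 4 in both tissues. Abcc9, the channel subunit SUR2, had the highest mean (-0.85) and Rgs5 the largest difference (-1.22). Neither is particular to mural cells. The study discusses SUR2 among the KATP channels of the heart, and cites measurements of RGS proteins within atrial and ventricular cardiocytes. The part of heart muscle in these values was not tested. Endothelial and mural cells are known sites of the receptors of Adora2a and P2ry2 and of CD39. The part of these cells in the differences of Adora2a, Adora2b, P2ry2 and Entpd1 was not tested.

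Most markers of fat and of the outer lining of the heart were higher in the atria, as was Adora1, which adipocytes also express. Of 6 adipocyte markers 4 were higher in the atria and 2 were not called (median 2.68), and Lep was under 4 in both tissues. Fabp4 had the highest mean, and was not called (-0.19, adjusted p = 0.49), while Pck1 had the largest difference (3.28). Their summed linear intensity was 1583 to 5184 in the atrial and 2182 to 2420 in the ventricular pools, but Fabp4, which capillary endothelium also makes, carried most of the ventricular sum (2097 to 2329). Without Fabp4 the other 5 markers summed to 251 to 2101 in the atrial and 86 to 93 in the ventricular pools. The atrial pools were unlike each other, with Adipoq, the adipocyte hormone adiponectin, at 5.76, 7.04, 6.51 and 8.09. Adora1 read 5.43, 5.55, 5.19 and 5.72 in the same pools, and 4.91 in the highest ventricular pool. Without atrial replicate 4 the Adora1 difference was 0.56. Of 5 measured mesothelial markers 4 were higher, among them Msln (4.4), which had the highest mean, and 1 was lower, Wt1 (-0.38), with sums of 777 to 1522 in the atria and 165 to 187 in the ventricles. None was under 4 in both tissues. The median deviation of the mesothelial markers from the mean of the 8 arrays was 2.31, 1.68, 1.64 and 1.23 in atrial replicates 1 to 4. The part of adipocytes and mesothelium in the Adora1 difference was not tested.

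**Figure D3:**
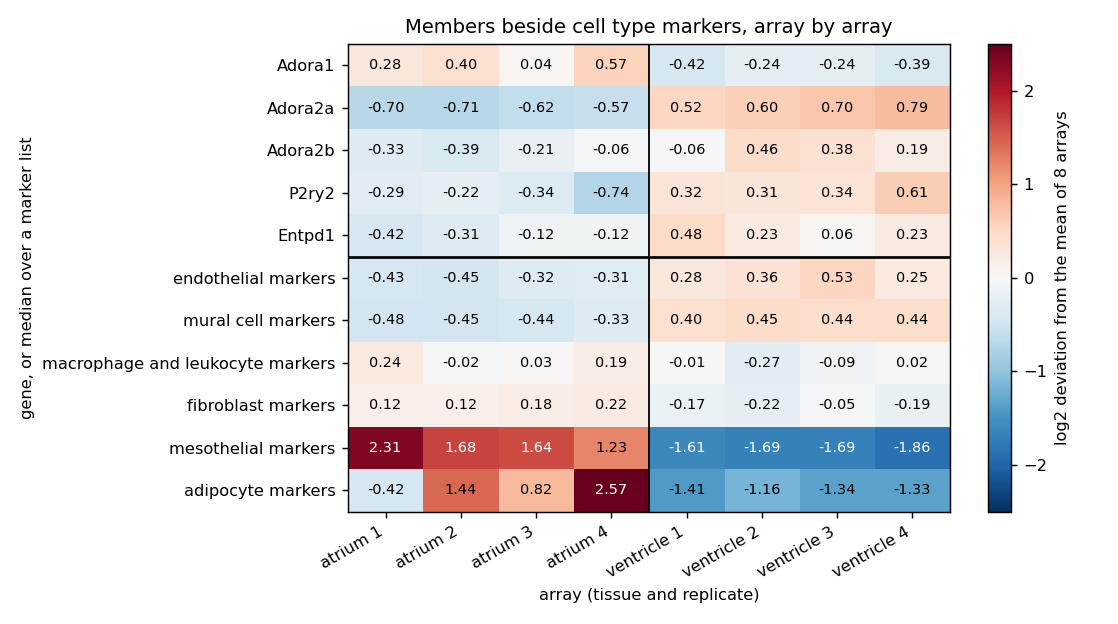
Log2 deviation from the mean of the 8 arrays (color and printed value) for the 5 called members (upper rows) and for the median of 6 marker lists (lower rows), in each array (columns, atrium and ventricle with their replicate numbers). The medians of the endothelial and mural cell markers are negative in all atrial pools, as are Adora2a, Adora2b, P2ry2 and Entpd1. Adora2b is also negative in ventricular replicate 1. The median of the adipocyte markers ranges from -0.42 to 2.57 among the atrial pools.

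Markers of other cells were read in the same way. Of 10 macrophage and leukocyte markers, 5 were higher in the atria, 1 was lower and 4 were not called, with a median of 0.25 and sums of 751 to 947 in the atria and 648 to 770 in the ventricles, none of them under 4 in both tissues. C1qa, with the highest mean, differed by 0.39. The largest differences were Cd14 (0.6) and Ptprc (-0.78), the leukocyte antigen CD45. Mast cells, which carry A3 receptors, showed 1 of 7 markers higher, the protease Cpa3 (0.63), and 6 not called, with sums of 127 to 184 and 135 to 155. The mast cell markers Fcer1a, Ms4a2 and Hdc were under 4 in both tissues, and Cma1 had the highest mean (0.06). Of 9 fibroblast markers 7 were higher and 1, Fap (-0.92), was lower, with sums of 13752 to 15681 in the atria and 10905 to 12399 in the ventricles and none under 4 in both. Col3a1, with the highest mean, differed by 0.31, and Col1a2 had the largest difference above 0, at 0.59. Of 7 Schwann cell and neuron markers 2 were higher and 1 was lower, with sums of 152 to 216 and 134 to 154. S100b was higher by at least 4.18 fold, as its ventricular mean of 3.5 lay under 4, while Sox10 differed by -0.59 and Prph, with the highest mean, by 0.31, and Ngfr, Th and Chat were under 4 in both tissues. The part of these cells in the values of the members was not tested.

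The remainder of the pathway was taken as 57 genes in 6 lists, of which 51 were measured. In the atria 13 of these were higher and 16 lower, while 22 were not called, which is 56.9% called beside 44.9% of all genes, with a median difference of 0. The lists were chosen with earlier results of these data known, and hold genes that the study selected on these arrays. The share called is therefore not independent of that choice. With the SAM statistic 20 were higher and 18 lower. The share of all genes called with SAM is not given here. These counts therefore cannot be set beside the 44.9%, which is from limma.

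The list of other nucleotide receptors was made of P2rx and P2ry symbols, P2ry10 included, whatever the ligand of each. Of its 10 measured genes 1 was higher, 4 were lower and 5 were not called (median -0.14). Of the 10, 6 were under 4 in both tissues. P2ry14, a receptor of UDP sugars, averaged 5.77 ± 0.08 in atrial and 6.91 ± 0.12 in ventricular pools (SD, n = 4 each) and differed by -1.14 (adjusted p = 9.9e-07). P2rx1, an ATP-gated channel of smooth muscle and platelets, was lower by 1.59 fold. This size is poorly set, as its means were 3.53 in the atria and 4.2 in the ventricles. P2rx5, a further ATP-gated channel, ran the other way, at 6.65 ± 0.09 in atrial and 6.27 ± 0.1 in ventricular pools (SD, n = 4 each, difference 0.37, adjusted p = 0.0021). Its dimmer probe set differed by 0.72. The other receptors of ATP, UTP or ADP gave no size, as P2rx2 (-0.08), P2rx3 (-0.26), P2rx6 (-0.21), P2ry4 (-0.01) and P2ry12 (0.25) were under 4 in both tissues, and of these P2rx3 alone was called (adjusted p = 0.028).

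Among 9 other ectonucleotidases 3 were higher, 4 were lower and 2 were not called. Those higher were the phosphodiesterase family of Enpp2 (1.12), best known as the autotaxin that forms lysophosphatidic acid, Enpp1 (0.69), which cleaves ATP to AMP and pyrophosphate, and Enpp3 (0.22). Enpp3 falls outside the rule for naming genes and was chosen after its value was seen. Alkaline phosphatase Alpl (-0.37) and the acid phosphatase Acp3 (-0.35, under 4 in both tissues) were lower.

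The list of intracellular purine enzymes held 14 measured genes, of which 3 were higher, 4 lower and 7 not called. It includes Nt5c3a, a nucleotidase best known for pyrimidines and 1 of the 3 higher (0.48), and Dpp4, a cell surface peptidase that binds adenosine deaminase in some species and was not called (0). Ada, which deaminates adenosine to inosine, averaged 5.47 ± 0.19 in atrial and 6.63 ± 0.06 in ventricular pools (SD, n = 4 each) and differed by -1.16 (adjusted p = 3.4e-06). Ampd3, which deaminates AMP, differed by -1.12 (adjusted p = 2.6e-07). Nt5c2, a cytosolic nucleotidase of purine monophosphates, differed by 1.15 and Ahcy, which releases adenosine from S-adenosylhomocysteine, by 0.57. Of 6 measured nucleoside transporters the equilibrative Slc29a1 was higher (0.27, adjusted p = 0.0068), the sodium-coupled Slc28a2 was lower (-0.88, adjusted p = 3.7e-05) and 4 were not called.

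Of 4 measured genes of ATP release, Panx1, which forms a large channel for ATP, was higher in the atria by at least 2.37 fold (adjusted p = 5.5e-05), while its other 2 probe sets, under 4 in both tissues, differed by 0.09 and 0.03. The volume-regulated channel subunit Lrrc8a was lower (-0.54), and Panx3 was called lower (-0.18) at the low end. Of 8 measured effectors of adenosine receptors 4 were higher, 1 was lower and 3 were not called. The channel subunits that the Adora1 receptor opens, Kcnj5 and Kcnj3, differed by 2.94 and 2.67, or 7.68 and 6.35 fold, and the inhibitory G protein Gnai2 by -0.34. The dimmest Kcnj3 probe set ran the other way, at -0.28 (adjusted p = 0.024). P2ry14, Ada, Ampd3, Kcnj3 and Kcnj5 are among the genes that the study selected on these arrays. All differences given here come from those same arrays, so no direction, also of the other genes, is independent of the study.

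**Figure D4:**
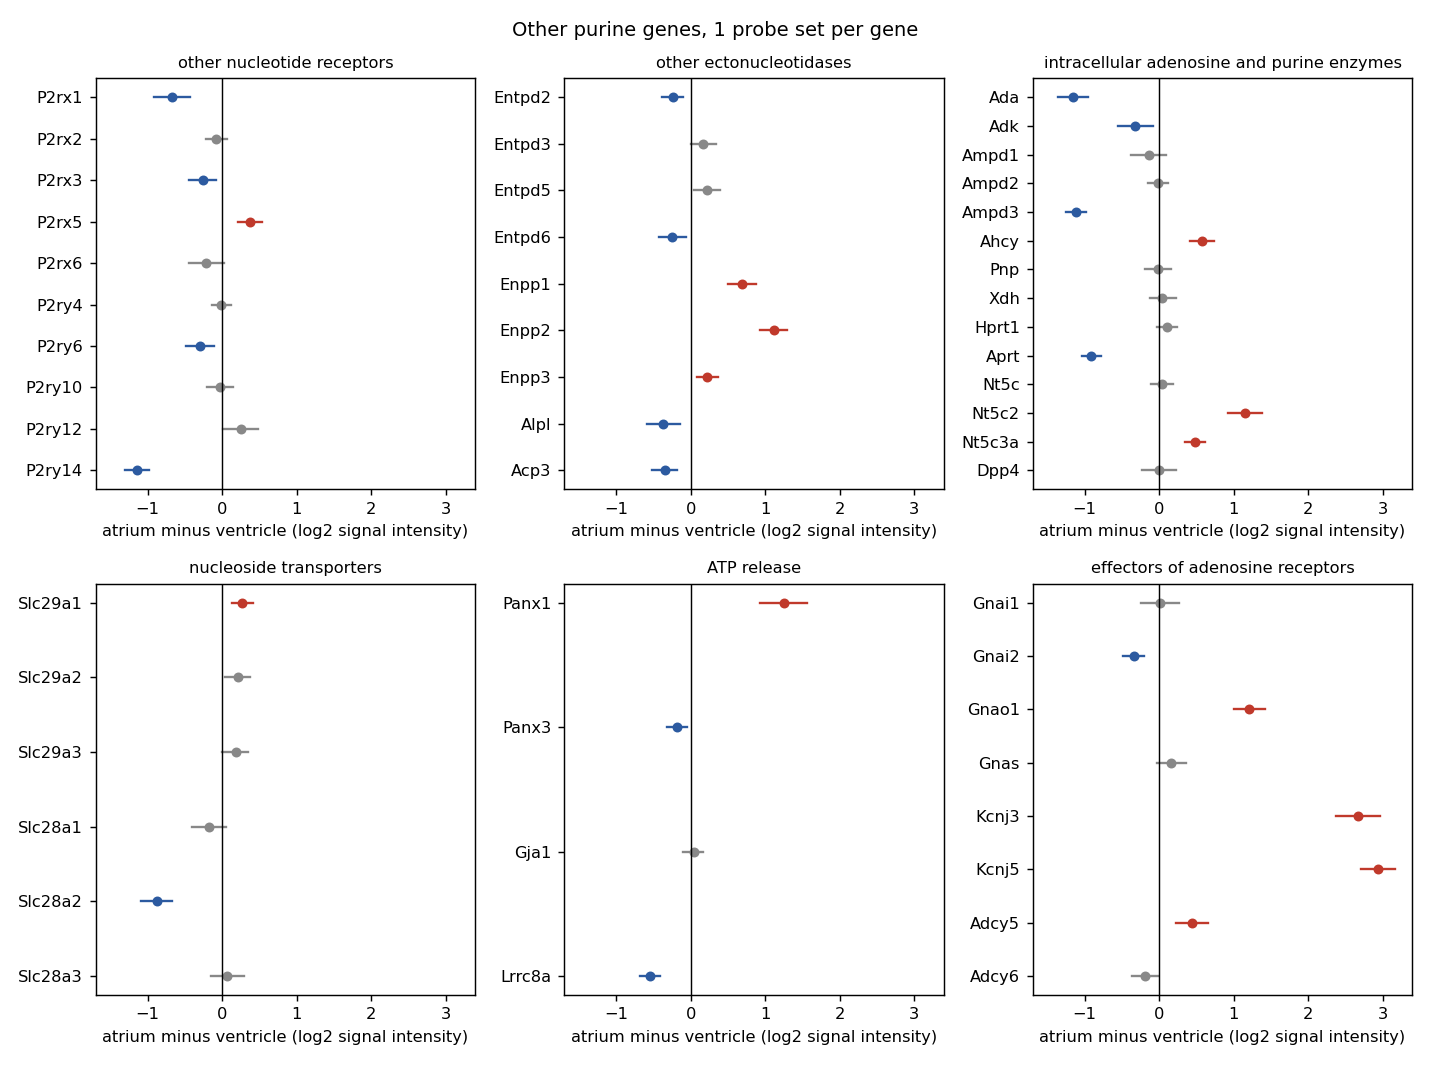
Difference between the tissues (atrium minus ventricle, log2 signal intensity, horizontal axes) of the 51 other purine genes in 6 lists, 1 probe set per gene, each point with its 95% interval from limma. Red marks a call as higher in the atria, blue a call as lower and grey no call. P2ry14 at -1.14, Ada at -1.16, Ampd3 at -1.12 and Slc28a2 at -0.88 lie to the left, and Kcnj5 at 2.94 and Kcnj3 at 2.67 lie farthest to the right.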

How the data were processed

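Total RNA (10 μg per array) of 4 atrial and 4 ventricular pools was hybridized to Affymetrix GeneChip rat arrays. The authors adjusted background, quantile normalized and summarized the probe intensities by RMA (version not given in the sources used here), and deposited them on the log2 scale, with array medians of 4.8 or 4.81. The number of arrays limits the precision. Which rats entered which pool is not given in the sources used here, and p-values measure the spread between pools. The authors' own test was SAM, used here as an alternative.

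All 31042 probe sets were fitted with limma 3.58.1 in R 4.3.3 without further scaling, with Benjamini-Hochberg adjustment, and no filter. Checks on simulated data preceded the fit. Probe sets with 1 symbol (20837) were named from the platform annotation, those of several genes (425) or none (9780) were not. Named genes were all members, in each pathway list the 2 largest called differences in each direction and receptors sharing a ligand with a member, and in marker lists the brightest gene and the largest differences. Members and lists were chosen with earlier results of these data known. Alternatives were the SAM statistic, a trended and robust fit, a replicate block (also with atrial replicates 3 and 4 exchanged), other scalings, a filter on dim probe sets, means over probe sets and arrays left out. Promoters are from RefSeq, with 9 of 10 members matched. Figures were drawn with matplotlib 3.10.9.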

Additional observations from a re-analysis of the deposited data

Results flagged for a closer look

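P2ry2 in ventricular replicate 4, at a log2 signal intensity of 6.65, lay far from the other ventricular pools (6.35 to 6.38). It was the only such array among 24 groups of 4 pools, 2 per member probe set, and chance flags about 1 group in 20. Without this array P2ry2 differed by -0.72 (adjusted p = 0.0012 from limma, and 4.2e-05 to 0.0031 over all limma alternatives).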

How the results depend on the processing

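Under every alternative run except the study thresholds, 1 member gene was higher in the atria, and 3 to 6 were lower. The share of all genes called was taken only for the limma fit of all arrays and the study thresholds. Counts under the other alternatives therefore have no such share beside them. At the study thresholds, put on the adjusted p of limma, 0 members were higher and 1 was lower, against 1 and 4, and 6 and 5 of the other purine genes, against 13 and 16. The SAM statistic called 20 other purine genes higher. With 1 array left out, the members counted 1 higher and 4 to 5 lower, and the other purine genes 13 to 16 higher and 11 to 16 lower. Differences that changed sign were those of P2rx7, from -0.04 to 0.13 with 1 array left out, and P2ry1, from -0.18 to 0.05, and 0.09 without atrial replicates 1 and 4 together, an omission chosen after seeing the data. Neither gene was called under any alternative. Apart from the study thresholds and from Adora2b, which the filter on dim probe sets left out, no called member probe set lost its call. With the replicate block the members counted 1 higher and 4 lower and the other purine genes 12 and 14. The numbers were not taken as pairs, since no source used here says that pools of the same number share animals. By the labels, residuals of same-numbered pools correlated from -0.188 to 0.155. A table of the study numbers atrial pools 3 and 4 the other way round from the labels. With that numbering, tried after seeing the data, same-numbered residuals correlated from 0.134 to 0.278. The highest correlation of any other atrial pool with a ventricular pool was 0.061. The replicate block with that numbering called 1 member higher and 5 lower (P2rx4 in addition, adjusted p = 0.039, 0.039 to 0.32 over all limma alternatives) and 14 and 17 of the other purine genes. Whether pools share animals was not tested. The filter on dim probe sets kept 7 of 10 members. Depth here is signal over background: Adora3 and P2rx7 were at the low end in both tissues, so differences in them could not be sized.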
